A study of Homo sapiens with 6 samples.

Results

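The homeobox genes described here, which acute myeloid leukaemia cells often share with blood stem cells, were 10 in number: 8 genes of the HOXA cluster (HOXA3, HOXA4, HOXA5, HOXA6, HOXA7, HOXA9, HOXA10 and HOXA11) and the genes of 2 of their partner proteins, MEIS1 and PBX3. They were chosen by gene name, and all 10 were found among the 60675 gene identifiers of the deposited tables. The cells were OCI-AML2, an established human acute myeloid leukaemia line, and all of them had been transduced with a short hairpin RNA construct. RNA was pulled down from their lysate with J2, an antibody that binds double-stranded RNA, and the precipitate was sequenced. In 3 libraries the hairpin was against PNPT1, which encodes the mitochondrial RNA-degrading exonuclease PNPase, and in 3 libraries it was against SUPV3L1, which encodes SUV3, the helicase that works with PNPase. The design text calls the libraries of a group biological replicates. No library of cells without a knockdown and none of RNA before the precipitation was analysed here, so each comparison below sets the SUPV3L1 knockdown against the PNPT1 knockdown. Each sample title ends in a number of its own, and the labels do not tell what it stands for or which hairpin a library carried, so the libraries of a group may differ in hairpin.

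HOX genes encode transcription factors that bind DNA through a homeodomain, and they lie in clusters in which the order of the genes follows where and when they are used in the embryo. In blood, the HOXA genes are active in stem and progenitor cells and are switched off as cells mature. MEIS1 and PBX3 belong to the TALE class of homeodomain proteins, which bind DNA together with HOX proteins. Forced expression of HOXA9 with MEIS1 turns mouse marrow progenitors leukaemic, and leukaemias with KMT2A fusions or NPM1 mutations hold these genes at a high level. The values here are levels in J2 precipitates, which contain RNA that was double-stranded or that came down with it. They are therefore neither total RNA levels nor protein levels.

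The 8 HOXA genes lie in a cluster on the minus strand of chromosome 7, from chr7:27106184 to chr7:27185223 in the GRCh38 build, by the gene models of GENCODE 29. By these models HOXA4, HOXA5 and HOXA6 lie within the span of HOXA3, and HOXA9 overlaps HOXA10. MEIS1 lies on the plus strand at chr2:66433452-66573869, and PBX3 on the plus strand at chr9:125747345-125967377. To show where transcription of the 4 genes discussed most begins, the bases just upstream of a RefSeq start are printed here (build GRCh38.p14, strand as named, 5′ to 3′). RefSeq windows were found for 9 of the 10 genes, HOXA5 being the one without. The HOXA10 window belongs to the start of its shorter transcript.
MEIS1 (chr2:66434875-66435124, plus strand): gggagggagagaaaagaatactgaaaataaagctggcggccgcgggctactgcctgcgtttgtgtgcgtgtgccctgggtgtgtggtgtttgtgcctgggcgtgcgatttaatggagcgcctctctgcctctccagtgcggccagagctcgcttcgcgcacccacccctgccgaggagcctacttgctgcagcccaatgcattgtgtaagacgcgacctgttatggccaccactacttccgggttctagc
PBX3 (chr9:125747933-125748181, plus strand): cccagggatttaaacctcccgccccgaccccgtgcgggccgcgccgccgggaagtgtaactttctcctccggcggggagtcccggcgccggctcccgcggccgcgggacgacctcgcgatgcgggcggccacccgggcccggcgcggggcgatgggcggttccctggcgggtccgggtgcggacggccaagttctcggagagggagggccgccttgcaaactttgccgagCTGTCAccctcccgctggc
HOXA9 (chr7:27165538-27165787, minus strand): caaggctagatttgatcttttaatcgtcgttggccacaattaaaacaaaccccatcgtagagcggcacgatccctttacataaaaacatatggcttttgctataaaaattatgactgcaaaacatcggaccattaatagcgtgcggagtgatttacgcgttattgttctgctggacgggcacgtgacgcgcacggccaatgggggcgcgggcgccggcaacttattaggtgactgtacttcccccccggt
HOXA10 (chr7:27174321-27174570, minus strand): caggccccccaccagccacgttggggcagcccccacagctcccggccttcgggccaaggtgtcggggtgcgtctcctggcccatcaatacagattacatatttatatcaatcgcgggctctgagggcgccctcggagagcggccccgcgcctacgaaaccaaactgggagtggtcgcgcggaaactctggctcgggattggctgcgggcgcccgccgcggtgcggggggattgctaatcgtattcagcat
Capitals mark a match to TGACAG or its reverse complement CTGTCA, the core letters that MEIS proteins prefer. Of these 4 stretches PBX3 alone held one. Over the 16 windows of 250 bases that precede the starts of the 9 genes (7 of them HOXA3 starts), 2 held these letters, 1 before HOXA4 and 1 before PBX3. In all promoter windows of that length the share was 13.03%. The joint HOX and PBX motif TGATTNAT (reverse ATNAATCA) was in 0 of the 16 windows and in 2.48% of all windows. Neither motif contains the other. Both strands were searched, and a match of letters does not show a binding site.

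The libraries held 5852090 to 11361371 reads assigned to genes, and PNPT1 knockdown replicate 3 was the shallowest. That library also stood apart in scaling: its TMM factor, the correction that edgeR applies to a library's total, was 0.669, against 0.988 to 1.21 in the other 5, and 16620 genes had a count in it against 20765 to 22393. Of its entries 7.06% were assigned to a gene, against 11.96% to 16.04% in the other 5, and 80.1% were not unique, against 65.7% to 71.6%. Its values bear on most results below, so the fold changes of the named genes are given with and without it. Both knocked-down genes were detected in every library, and without cells lacking a knockdown their depletion cannot be measured. Levels from the counts are given as CPM, reads scaled to the size of the library after the TMM correction. SUPV3L1 had 12.2, 12.3 and 9.42 CPM in its own knockdown, against 11.5, 18.2 and 25.8 CPM in the other group. PNPT1 had 7.66, 18.9 and 17.1 CPM in its own knockdown, against 36.3, 27.6 and 21.4 CPM in the other group. The PNPT1 values of the 2 groups did not overlap and those of SUPV3L1 did, and neither gene passed the test (edgeR adjusted p = 0.898 for both). Their log2 fold changes were 0.97 for PNPT1 and -0.70 for SUPV3L1, and 1.09 and -0.40 without PNPT1 knockdown replicate 3. Of 10 markers of myeloid leukaemia identity, 9 were left by the filter on low counts, with summed levels of 1351 to 1535 CPM in the PNPT1 and 1044 to 1589 CPM in the SUPV3L1 knockdown. MPO, the granule peroxidase, was low at 0.822 to 7.07 CPM, while CD33 stood at 28.2 to 59.2 CPM and SPI1, the transcription factor PU.1, at 52.0 to 82.4 CPM. Of 14 markers of other cell types, 6 had no count in any library, 12 had fewer than 10 counts over all libraries and PECAM1 was the only one left by the filter. The summed level of the 14 was 21.5 to 78.2 CPM in the PNPT1 and 30.2 to 105 CPM in the SUPV3L1 knockdown.

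Compared per length, in the deposited FPKM values (fragments scaled to gene length and library depth), PBX3 had the highest mean of the 10 genes over the 6 libraries at 13.1 FPKM, followed by HOXA9 at 8.60 and MEIS1 at 4.57 FPKM. HOXA5 at 3.88, HOXA10 at 3.78 and HOXA11 at 3.05 FPKM came next, then HOXA6 at 2.02 and HOXA7 at 1.37 FPKM, and HOXA4 at 0.800 and HOXA3 at 0.505 FPKM were lowest. Each gene in that order was above the next in 5 of the 6 libraries, with 1 exception: HOXA5 was above HOXA10 in 2 of 6, so those neighbours do not differ in order beyond their spread. By mean FPKM the most abundant HOXA gene of these precipitates was therefore HOXA9, the best-known leukaemic member of the cluster. The raw counts, which are not scaled to length, gave another order. HOXA9 had fewer counts than HOXA10 in every library except PNPT1 knockdown replicate 3 (ratios of 0.573 to 0.879, against 1.82 in that replicate). The spread of HOXA9 was wide, from 3.19 FPKM in PNPT1 knockdown replicate 2 to 20.1 FPKM in replicate 3.

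**Figure D1:**
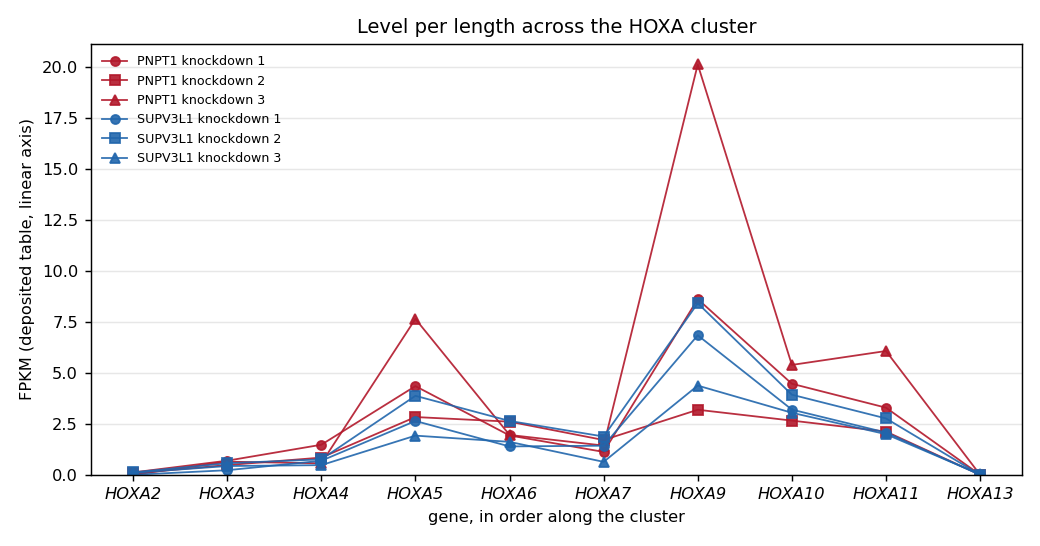
Levels per length of 10 HOXA genes, in their order along the cluster. The x axis names the genes and the y axis gives FPKM from the deposited table on a linear axis; each symbol is 1 library, lines join the symbols of a library, red marks the PNPT1 and blue the SUPV3L1 knockdown. HOXA9 is the peak in every library, at 20.1 FPKM in PNPT1 knockdown replicate 3, and HOXA2 and HOXA13 lie at the bottom.

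Across the whole comparison no gene passed an adjusted p of 0.05 in edgeR's quasi-likelihood test (Benjamini-Hochberg over 13275 genes, 0% called; the smallest adjusted p was 0.898). Before adjustment 543 genes, 4.09%, had a p under 0.05. DESeq2 called 19 of 17661 genes, 0.108%, and none of the 10 homeobox genes. Of the 10, 9 were left by the filter on low counts, HOXA4 being too low. All 9 had a lower fitted level in the SUPV3L1 knockdown, where 49.3% of all genes tested did. Their log2 fold changes ran from -1.54 to -0.08 with a median of -0.59, beside a median of 0.01 over all genes tested. HOXA5, HOXA9, HOXA10 and HOXA11 were largely high and low in the same libraries, so these 9 values are not 9 independent observations.

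**Figure D2:**
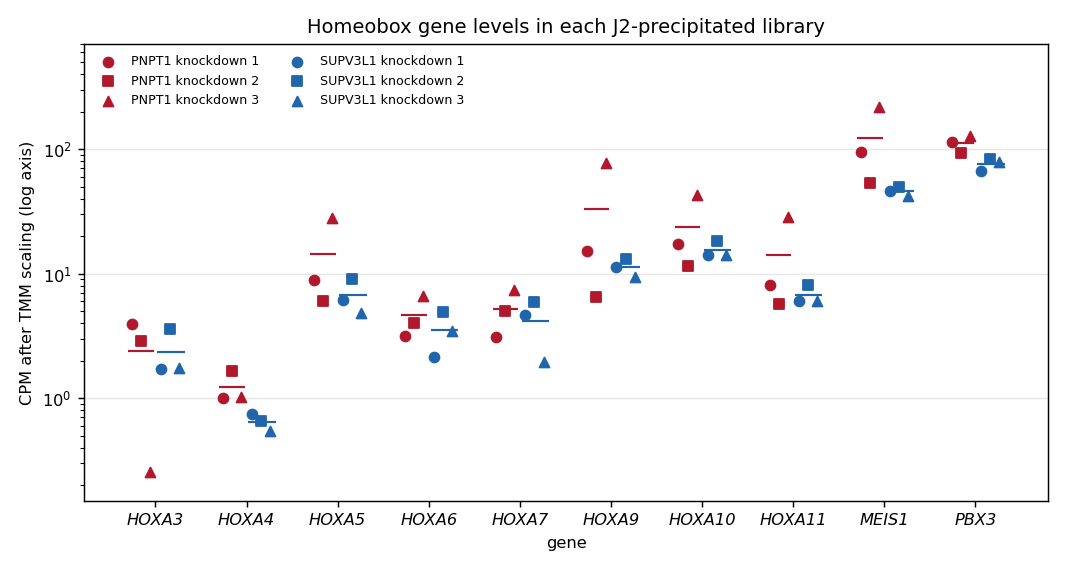
Levels of the 10 homeobox genes in each library. The x axis names the genes and the y axis gives CPM after TMM scaling on a log axis; symbols are libraries and the short lines are group means (red, PNPT1 knockdown; blue, SUPV3L1 knockdown). PNPT1 knockdown replicate 3 (red triangle) is at the top for 8 of the 10 genes and at the bottom for HOXA3, at 0.256 CPM, and the MEIS1 libraries of the SUPV3L1 knockdown sit together at 42.3 to 49.3 CPM.

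MEIS1, the TALE protein that cooperates with HOXA9, had the smallest p of the 9 genes. The 3 PNPT1 knockdown libraries had 95.7, 53.1 and 219 CPM, and the 3 of the SUPV3L1 knockdown had 46.0, 49.3 and 42.3 CPM. The SUPV3L1 libraries lay close together and every one of them was below the lowest PNPT1 library, though replicate 2 of the PNPT1 knockdown was only just above. In these bulk precipitates, fewer cells that hold a transcript, less RNA per cell and a smaller share of that RNA pulled down cannot be told apart. The means were 123 ± 86.3 CPM and 45.9 ± 3.50 CPM (SD, n = 3 each). The log2 fold change was -1.41 ± 0.47 (SE; 95% interval -2.45 to -0.38), with an unadjusted edgeR p of 0.0122 and an adjusted p of 0.898. MEIS1 stood at place 98 of the 13275 genes ordered by p. It was the only one of the 9 with an unadjusted p under 0.05, a level that 2.39% of all genes reached with a lower value in the SUPV3L1 knockdown. In the deposited FPKM values the groups did not overlap either: MEIS1 was at 6.80, 3.56 and 8.38 FPKM in the PNPT1 and at 2.94, 3.25 and 2.50 FPKM in the SUPV3L1 knockdown. limma on log2(FPKM + 0.1) gave a difference of -1.004 ± 0.41 (adjusted p = 0.968); all 10 genes were below 0 on that scale, where 38% of all genes were. MEIS1 was the only one of the 10 whose FPKM values did not overlap, as was so, with lower values, for 3.57% of all genes. Without PNPT1 knockdown replicate 3 the edgeR log2 fold change of MEIS1 was -0.71 ± 0.30 (unadjusted p = 0.0481, adjusted p = 0.999). Over the fits that left out 1 library it ran from -1.78 to -0.71. Without PNPT1 knockdown replicate 2, 4 of the 9 genes had an unadjusted p under 0.05 (MEIS1, HOXA9, HOXA5 and HOXA11), as did 2098 of all 13702 genes, and without replicate 1 it was 2 of 9 and 608 of 13828.

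PBX3, the partner that HOXA9 and MEIS1 bind with, had 114, 92.4 and 129 CPM in the PNPT1 knockdown, against 66.7, 83.2 and 78.3 CPM in the other group. Its groups did not overlap on this scale. The means were 112 ± 18.3 and 76.0 ± 8.48 CPM (SD, n = 3 each), and the log2 fold change was -0.55 ± 0.29 (95% interval -1.20 to 0.09; edgeR adjusted p = 0.898). Unlike the other abundant members, PBX3 in PNPT1 knockdown replicate 3 was 1.25 times the mean of the other 2 PNPT1 libraries, and without that library its log2 fold change was -0.45. In FPKM the separation was lost: the PNPT1 libraries had 19.1, 14.9 and 10.9 FPKM and the SUPV3L1 libraries 9.55, 12.5 and 11.5 FPKM, so that replicate 3 fell among the SUPV3L1 libraries. It was so too with plain library totals and no TMM correction, where that library had 86.0 CPM of PBX3 and the highest SUPV3L1 library 88.1 CPM, while the MEIS1 groups were still apart, at 58.1 CPM or more against 52.3 CPM or less. After TMM scaling MEIS1 and PBX3 were the 2 of 9 genes whose CPM values were lower in every SUPV3L1 library, which held for 3.94% of all genes tested; groups that did not overlap in either direction made up 8.56%.

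**Figure D3:**
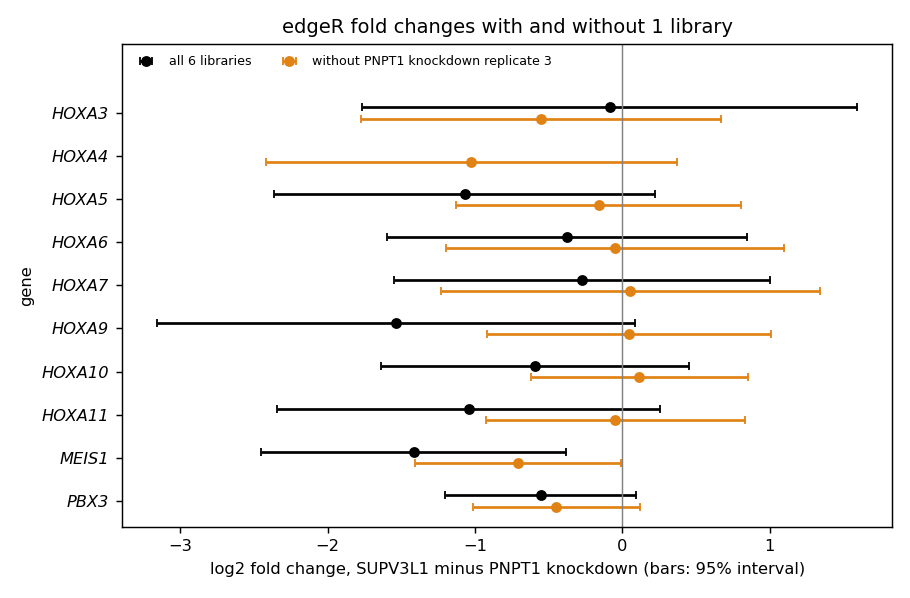
edgeR log2 fold changes of the homeobox genes, SUPV3L1 minus PNPT1 knockdown (x axis), by gene (y axis), with bars for the 95% interval. Black points use the 6 libraries and orange points leave out PNPT1 knockdown replicate 3; HOXA4 has no black point because the filter removed it. HOXA9 moves from -1.54 to 0.04, while MEIS1 moves from -1.41 to -0.71 and stays below 0 with its interval.

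HOXA9, HOXA10 and HOXA11 are the genes at the 5′ end of the cluster that were measured well here. The PNPT1 libraries had 15.1, 6.55 and 77.8 CPM of HOXA9, and the SUPV3L1 libraries 11.3, 13.01 and 9.42 CPM. The groups overlapped: replicate 2 of the PNPT1 knockdown was the lowest library of the 6 and replicate 3 the highest. The log2 fold change was -1.54 ± 0.73 (95% interval -3.16 to 0.08; edgeR adjusted p = 0.898), the lowest of the 9 tested genes. Without PNPT1 knockdown replicate 3 it was 0.04 ± 0.42, so the difference rested on that library. On log2(FPKM + 0.1) with all 6 libraries limma gave HOXA9 a difference of -0.38 ± 0.59 (adjusted p = 0.968), smaller than the -1.004 of MEIS1. HOXA10, which also expands progenitors when overexpressed, was at 17.2, 11.4 and 42.7 CPM against 14.2, 18.4 and 14.2 CPM. Its log2 fold change was -0.59 ± 0.47 (edgeR adjusted p = 0.898), and 0.11 without that replicate. HOXA11, better known from limb, kidney and uterus, was at 8.06, 5.76 and 28.7 CPM against 6.002, 8.11 and 6.06 CPM, a log2 fold change of -1.04 ± 0.59 (edgeR adjusted p = 0.898) and -0.05 without it. In all 3 genes PNPT1 knockdown replicate 3 was far above the other 5 libraries, which lay among each other irrespective of group.

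HOXA5, a regulator of the choice between myeloid and erythroid cells, was again highest in PNPT1 knockdown replicate 3. Its levels were 8.86, 6.03 and 28.2 CPM in the PNPT1 group, against 6.17, 9.05 and 4.87 CPM in the SUPV3L1 group. The log2 fold change was -1.07 ± 0.58 (edgeR adjusted p = 0.898) and -0.16 without PNPT1 knockdown replicate 3. HOXA6 was at 3.19, 4.02 and 6.65 CPM against 2.14, 4.90 and 3.46 CPM. HOXA7, which is often raised together with HOXA9 and MEIS1 in leukaemia, was at 3.09, 4.98 and 7.42 CPM against 4.69, 5.94 and 1.95 CPM. Neither differed beyond the spread, with log2 fold changes of -0.38 ± 0.55 and -0.27 ± 0.58 (edgeR adjusted p = 0.925 and 0.944), and -0.051 and 0.054 without PNPT1 knockdown replicate 3. HOXA4 had 4 to 19 counts a library and was not left by the filter, so edgeR's main test does not hold it. Its levels were 0.995, 1.66 and 1.02 CPM against 0.740, 0.660 and 0.541 CPM. The groups did not overlap in CPM, as held with lower values for 3.94% of all genes tested, but they did overlap in FPKM. Fits that kept HOXA4 with all 6 libraries gave a log2 fold change of -0.91 in edgeR with no expression filter (adjusted p = 0.810), -0.94 in DESeq2 (adjusted p = 0.988) and -0.45 in limma on FPKM (adjusted p = 0.968), and edgeR without PNPT1 knockdown replicate 3 gave -1.03.

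HOXA3, at the 3′ side of the group and known for its part in thymus and parathyroid, was the exception among the 9. It had 3.98, 2.88 and 0.256 CPM in the PNPT1 knockdown, against 1.73, 3.58 and 1.73 CPM in the other group, so PNPT1 knockdown replicate 3 was its lowest library where it was the highest for 8 of the other 9 genes. For comparison, that library was the highest of the 6 for 30.6% of all genes tested and the lowest for 36.5%. The log2 fold change of HOXA3 was -0.08 ± 0.76 (edgeR adjusted p = 0.983), and -0.55 without that library. The value in that library rests on 1 read, which allows 0.00648 to 1.43 CPM (95% Poisson interval, counting error only). The FPKM table did not show this gap: HOXA3 had 0.643 FPKM in that library and 0.224 to 0.691 FPKM in the others. The ratio of CPM (by plain totals) to FPKM should be about the same in every library for a gene whose length is fixed. For HOXA3 it was 0.266 in PNPT1 knockdown replicate 3 and 3.97 to 8.25 in the other 5. For HOXA5, HOXA7, HOXA10, HOXA11, MEIS1 and PBX3 the highest ratio was 1.07 to 1.18 times the lowest, and for HOXA6, HOXA9 and HOXA4 it was 1.38, 1.58 and 2.65 times. The exons of HOXA3 share 17.9% of their bases with another counted gene, those of HOXA4 47.3% and those of HOXA9 27.0%. HOXA7, with 62.5%, and HOXA11, with 31.1%, had ratios that varied little, and in both all the shared bases lay on the opposite strand. Same-strand sharing was 9.24% for HOXA3, 31.0% for HOXA4, 4.44% for HOXA6, 13.1% for HOXA9 and 9.93% for HOXA10. It was 0% for HOXA5, HOXA7, HOXA11, MEIS1 and PBX3. Whether overlap bears on the spread of the ratio was not tested.

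**Figure D4:**
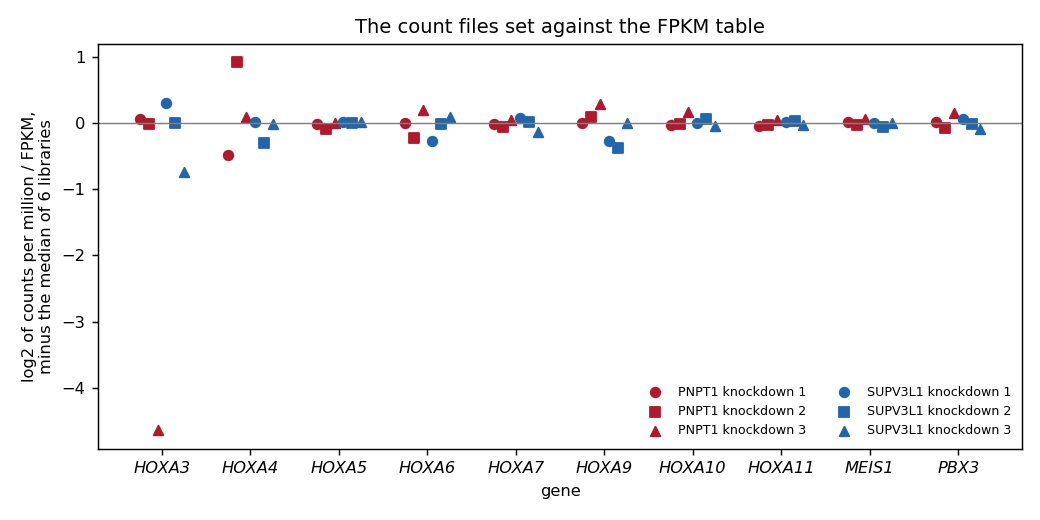
Agreement of the count files with the FPKM table for the 10 genes (x axis). The y axis gives the log2 ratio of CPM to FPKM in each library, minus the median of that gene over the 6 libraries, with red symbols for the PNPT1 and blue for the SUPV3L1 knockdown. The HOXA3 point of PNPT1 knockdown replicate 3 lies far below the rest, and the points of MEIS1, PBX3 and HOXA5 lie near 0.

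Without PNPT1 knockdown replicate 3, all 10 genes were left by the filter. Of these, 7 then had a log2 fold change below 0, beside 49.1% of all 14022 genes tested, and their median was -0.10. Over the 8 HOXA genes the median was -0.05. MEIS1 was the only one with an unadjusted p under 0.05, where 1.03% of all genes had such a p with a lower value. How far replicate 3 stood above its fellow libraries differed from gene to gene. HOXA9 was 7.18 times the mean of PNPT1 knockdown replicates 1 and 2, a ratio that 0.475% of all genes tested reached. HOXA11 at 4.15, HOXA5 at 3.78, HOXA10 at 2.98 and MEIS1 at 2.95 times followed. HOXA6 and HOXA7 were 1.85 and 1.84 times as high, and PBX3 1.25 times. With plain library totals replicate 3 was still the highest library for HOXA5, HOXA9, HOXA10, HOXA11 and MEIS1, and no longer for HOXA6, HOXA7 and PBX3. In the raw counts, which no scaling touches, HOXA9 had 304 reads in that library against 152 and 75 in the larger PNPT1 knockdown libraries, and 87 to 138 in the SUPV3L1 knockdown.

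The balance between the genes was also read within each library, as a ratio of counts that library size cannot move. The ratio of MEIS1 to PBX3 counts was 0.840, 0.575 and 1.70 in the PNPT1 knockdown and 0.691, 0.593 and 0.541 in the SUPV3L1 knockdown. The ratio of HOXA9 to HOXA10 counts was 0.879, 0.573 and 1.82 against 0.792, 0.708 and 0.664. Both ratios were highest in PNPT1 knockdown replicate 3, and in both the other 5 libraries overlapped between groups. HOXA9 made up 40.4% of the counts of the 8 HOXA genes in that library, and 15.1% to 25% in the other 5.

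**Figure D5:**
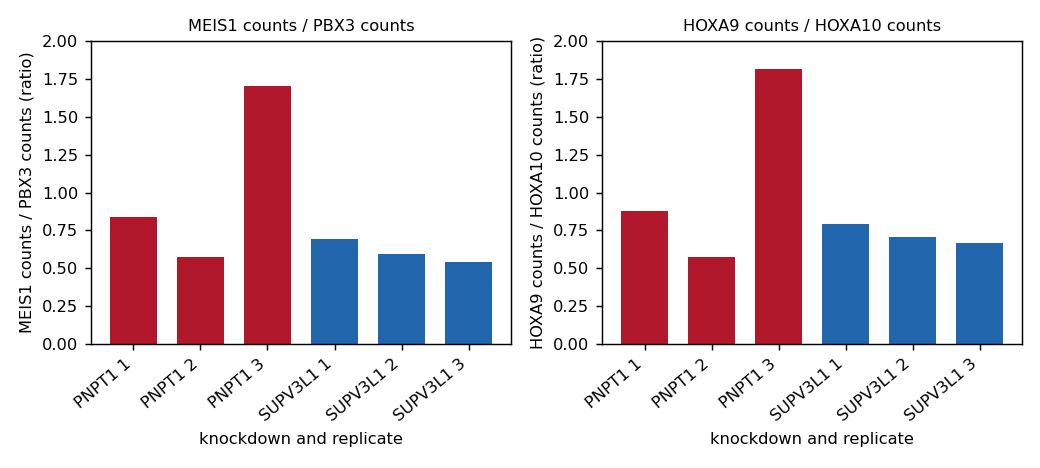
Ratios of read counts within each library: MEIS1 to PBX3 on the left and HOXA9 to HOXA10 on the right. Each bar is 1 library (x axis, knockdown and replicate) and the y axes give the ratio from 0; red bars are the PNPT1 and blue bars the SUPV3L1 knockdown. PNPT1 knockdown replicate 3 has the highest bar in both panels, at 1.70 and 1.82.

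Several of the genes followed one another across libraries. The correlations of log2 CPM given here come from values that share libraries and scaling, and are descriptions. Over the 6 libraries Pearson's r was 0.99 between HOXA9 and HOXA10, 0.99 between HOXA10 and HOXA11 and 0.98 between HOXA5 and HOXA11, and over the 5 libraries without PNPT1 knockdown replicate 3 it was 0.93, 0.92 and 0.91. MEIS1 and PBX3 had 0.90 and 0.88. Between MEIS1 and HOXA9 r was 0.92 with that library and 0.51 without it, and between HOXA3 and HOXA9 it was -0.79 and 0.39, so both values turned on 1 library. Outside the list, the genes most like MEIS1 over the 6 libraries were SASS6 (r = 0.998), PPP3R1 (0.998) and METTL17 (0.996), and those most like PBX3 were ABCD4 (0.992), TBC1D2B (0.989) and DNAJC4 (0.989). For HOXA9 they were POLDIP3 (0.998), GTF2B (0.997) and STXBP2 (0.996), and for HOXA10 RPS24 (0.996), POLDIP3 (0.993) and COPZ1 (0.992). With 9737 genes screened over 6 libraries, such values describe the libraries.

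HOXA2 and HOXA13, of the same cluster, were near the limit of detection. HOXA2 had 0 to 4 counts a library and HOXA13, a gene of limb and genital development, 0 or 1, where 3 counts correspond to 0.264 to 0.513 CPM. The antisense transcript HOXA-AS3 shares exonic bases with HOXA3, HOXA4, HOXA6 and HOXA7. It had 9, 11 and 16 counts in the PNPT1 knockdown and 7, 6 and 2 in the SUPV3L1 knockdown. Its log2 fold change was -1.97 ± 0.83 (edgeR adjusted p = 0.898), and -1.002 without PNPT1 knockdown replicate 3. The CPM groups of HOXA-AS3 did not overlap, as held with lower values for 3.94% of all genes tested. Its FPKM values were all 0.298 or less, and limma on log2(FPKM + 0.1) gave a difference of -0.67 (adjusted p = 0.968). HOXA10-AS had 9, 34 and 4 against 24, 43 and 11 counts (log2 fold change 0.52 ± 0.71, and -0.082 without SUPV3L1 knockdown replicate 2). HOXA11-AS had 2 to 13 counts, HOTAIRM1 0 to 3, HOXA-AS2 0 to 3 and HOTTIP 0 to 5, and the read-through gene HOXA10-HOXA9 had none in any library. The exons of HOXA6 share 40.1% and those of HOXA10 26.3% of their bases with other counted genes, against 4.19% for MEIS1 and 0% for HOXA5 and PBX3. The library kit keeps strand, but the labels and notes do not tell whether the counting used it, so for the overlapping genes sense and antisense reads cannot be told apart. The other HOX clusters were at or near 0: of 28 HOXB, HOXC and HOXD genes, 23 had no count in any library and 27 had fewer than 10 over all libraries.

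No gene of the lists around the pathway passed the adjusted threshold in the edgeR fit with its default filter. Of all genes tested in that fit, 49.3% were lower in the SUPV3L1 knockdown. Of 11 other TALE genes 7 were left by the filter, 5 lower and 2 higher in the SUPV3L1 knockdown (median log2 fold change -0.19), none with an unadjusted edgeR p under 0.05. Those with the smallest p were the repressors TGIF1 at 0.32 and TGIF2 at 0.49, and IRX3 at -0.50. Leaving out PNPT1 knockdown replicate 3 gave 0.19, 0.073 and -0.76. TGIF2 was at 1.17 without PNPT1 knockdown replicate 2, and IRX3 at -1.91 without SUPV3L1 knockdown replicate 2 and at -0.064 without SUPV3L1 knockdown replicate 1. Of 28 chromatin regulators that act on HOXA genes, 25 were left by the filter, 18 with lower and 7 with higher fitted values (median -0.33). An unadjusted edgeR p under 0.05 was seen for 2 of the 25, BMI1 and EZH2, both lower, beside 2.39% of all genes tested. BMI1, a subunit of Polycomb complex PRC1, was at 25.7, 19.9 and 50.7 CPM against 10.5, 18.1 and 8.34 CPM, and EZH2, the methyltransferase of PRC2, at 50.9, 35.3 and 106 CPM against 32.8, 28.3 and 23.4 CPM. Their log2 fold changes were -1.37 ± 0.45 and -1.18 ± 0.42, and -0.89 and -0.62 without PNPT1 knockdown replicate 3. MLLT3, a fusion partner of KMT2A, had -0.77 ± 0.36, and -0.63 without that library. Like MEIS1, BMI1 and EZH2 were highest in PNPT1 knockdown replicate 3, and their CPM groups did not overlap. Among the 25 regulators this lack of overlap held for 5, all lower in the SUPV3L1 knockdown, beside 3.94% of all genes tested. Of the other Polycomb genes in the list, SUZ12 did not overlap either but was highest in PNPT1 knockdown replicate 1. EED, CBX8 and RNF2 overlapped between groups.

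Of 30 known targets and cofactors of HOXA9 and MEIS1, 25 were left by the filter, 10 lower and 15 higher (median log2 fold change 0.11). PIM1, a kinase gene, had -2.44 ± 0.74 and SOX4, a transcription factor gene, -0.95 ± 0.34, while TLR4, a receptor of the innate immune response, had 1.88 ± 0.69. The fit without PNPT1 knockdown replicate 3 gave -1.57, -0.76 and 1.48. TLR4 was at 2.76 without PNPT1 knockdown replicate 2 and at 1.19 without SUPV3L1 knockdown replicate 1. With no expression filter PIM1 and TLR4 passed the adjusted threshold (edgeR adjusted p = 0.0392 and 0.0156), where 187 of 28015 genes did.

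Markers of mature myeloid cells lay on the other side. Of 21, 15 were left by the filter, 13 higher and 2 lower in the SUPV3L1 knockdown (median log2 fold change 2.28), with an unadjusted edgeR p under 0.05 for 8 higher and 1 lower, beside 1.7% and 2.39% of all genes tested, and none past the adjusted threshold in that fit. The 3 with the smallest p were LYZ, the secreted lysozyme, at 3.14, MS4A6A at 2.28 and VCAN, a matrix proteoglycan, at 4.27. LYZ passed the adjusted threshold with DESeq2 (adjusted p = 0.00133), as did 19 of 17661 genes. In edgeR with no expression filter, where 187 of 28015 genes passed it, LYZ, MS4A6A and VCAN did (adjusted p = 1.2e-08, 0.0241 and 1.2e-07). Their log2 fold changes were 3.28, 2.78 and 3.90 without PNPT1 knockdown replicate 3. VCAN was at 2.00 without SUPV3L1 knockdown replicate 1, and the 3 genes otherwise ran from 1.94 to 4.80 over the fits that left out 1 library. The summed level of the 21 was 656, 617 and 544 CPM in the PNPT1 knockdown and 4109, 799 and 2220 CPM in the SUPV3L1 knockdown. MEIS1 stood at 46.0, 49.3 and 42.3 CPM and PBX3 at 66.7, 83.2 and 78.3 CPM in those same SUPV3L1 libraries, so that MEIS1 spanned a narrow range while the marker sum spanned a wide one. The part of the mature markers in the difference of MEIS1 between groups was not tested.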

How the data were processed

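For each of the 6 libraries, 3 a group, the authors deposited raw counts of reads over 60675 Ensembl identifiers. Per the submitters' processing notes the authors used HTSeq, HISAT2 2.2.1, StringTie 2.1.4 and SAMtools 1.14, on GRCh38. How HTSeq treated strand, and which annotation it used, the sources used here do not give. The FPKM values are a table the authors deposited for the same genes, and the tool that made it is not named there. Summary lines were left out: of all entries 7.06% to 16.0% were assigned to a gene, 65.7% to 80.1% were not unique and 0.615% to 1.47% were ambiguous, with PNPT1 knockdown replicate 3 lowest, highest and lowest of the 6, so copies and overlapping genes are undercounted. Gene positions came from GENCODE 29, which holds 57055 of the identifiers.

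Counts were tested with edgeR 4.0.16 (R 4.3.3): TMM scaling, the default filter (minimum count 10, total 15) and the quasi-likelihood test. Adjustment was by Benjamini-Hochberg over 13275 genes, with a threshold of 0.05. FPKM values were tested with limma 3.58.1 on log2(FPKM + 0.1), a scale that understates changes of low genes. DESeq2 1.42.0, other scalings and filters, a pseudocount of 1 and leaving out each library were alternatives. limma voom with library quality weights was added after seeing the data. Only the edgeR fit with its main settings was tested on simulated counts, and the DESeq2 and limma fits were not. Intervals on counts cover counting error only.

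The 10 genes and all lists were chosen with earlier results of these data known. Named were the 10 genes, HOXA2, HOXA13, the HOXA noncoding genes and both targets. So were the 3 smallest p of each list except the identity markers and the markers of other cell types. The 3 genes most correlated with MEIS1, PBX3, HOXA9 and HOXA10 (mean count 50 or more) were named too. MPO, CD33, SPI1, PECAM1 and the Polycomb genes SUZ12, EED, CBX8 and RNF2 were named outside these rules. Replicates were numbered in accession order. p-values measure the spread between these libraries, and whether they came from separate cultures is given no further than the design text's word for replicates. A withheld item is not reported here.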

Additional observations from a re-analysis of the deposited data

How the results depend on the processing

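No paired analysis was possible because the replicate numbers follow accession order and pair no libraries. None of the 10 genes passed the adjusted threshold in any of the up to 17 settings in which it was measured, and the lowest adjusted p values were 0.0539 for MEIS1 and 0.0575 for HOXA9, both with edgeR and no expression filter. The count of genes past the threshold was 0 in the main fit, 187 of 28015 with no expression filter (107 higher, 80 lower) and 19 with DESeq2. It was 0 to 1 over the fits that left out 1 library, the 1 gene appearing without SUPV3L1 knockdown replicate 2. With the default filter 1 of 9 members and 543 of 13275 genes had an unadjusted edgeR p under 0.05. With no filter it was 4 of 10 members and 1552 of 28015 genes. MEIS1 and PBX3 were lower in the SUPV3L1 knockdown in every setting run, as were HOXA4, HOXA5, HOXA6 and HOXA11 where measured. The median of the members stayed below 0 in all settings, from -1.01 with the strict filter to -0.10 without PNPT1 knockdown replicate 3. The strict filter left only 6 members, dropping HOXA3, HOXA4, HOXA6 and HOXA7, so its median covers a different set. In that fit HOXA9 was at -1.49 and MEIS1 at -1.38, against -1.54 and -1.41 in the main fit. Library totals without mitochondrial and clone-named genes moved the median of all genes to 0.18 and left 34.3% of genes below 0, and relative to that median MEIS1 was at -1.24.

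Signs turned for some genes, and the cause was not tested. HOXA7 was 0.050 with limma voom and quality weights. With libraries left out in turn, HOXA3 was -0.55 to 0.45, HOXA7 -0.61 to 0.065, HOXA9 -2.04 to 0.044, HOXA10 -0.94 to 0.11 and HOXA10-AS -0.082 to 1.32. Depth limits HOXA2, HOXA4, HOXA13 and most antisense genes, which had few or no counts.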
